A study of Mus musculus with 120 samples.

Results

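Doublets of a T cell and a conventional dendritic cell (cDC), sorted from the liver lymph nodes of mice, were set against random pairs of 1 single T cell and 1 single cDC from the same sequencing batch and diet. The members are all wells listed with 1 cell on the liver lymph node plates of sequencing batches SB405 and SB410. They comprise 11020 wells on 29 plates, of 44840 such wells on 118 plates in the series. Doublets, labelled PIC (T + cDC), filled 2280 wells on 6 plates, single T cells 4940 wells on 13 plates and single cDC 3800 wells on 10 plates. The plate list gives a doublet well, too, as 1 cell.

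The mice were of strain c57bl and had been kept for 2 weeks on a normal diet (ND) or on MCDD, the usual abbreviation of a diet that lacks methionine and choline and serves as a feeding model of steatohepatitis. T cells were selected as CD45+TCRB+, cDC as CD45+Lin-MHC-II+CD11c+ and doublets as CD45+Lin-MHC-II+CD11c+TCRb+. The plates make 4 sets by batch and diet. In SB405 there were 4 T, 2 cDC and 1 doublet plate on ND, and 3 T, 3 cDC and 1 doublet plate on MCDD. In SB410 there were 3 T, 3 cDC and 2 doublet plates on ND, and 3 T, 2 cDC and 2 doublet plates on MCDD. Nothing in the labels ties a plate to an animal. All p-values here are therefore over plates, and the spread they rest on may be technical. The labels also do not say how events were checked to hold both cells, and no gene-level values were analysed here, so neither the T cell nor the cDC identity of a well could be checked against marker genes.

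In a lymph node, dendritic cells present peptides on MHC molecules to T cells, whose T cell receptor reads them, and cells in contact can be sorted still attached. CD11c and MHC class II mark dendritic cells and TCRβ is a chain of the T cell receptor, so an event positive for all of them can be a T cell bound to a dendritic cell. A well with such a pair should hold the RNA of both. Each well has a total count and a gene number, which is how many genes were detected in it. If a doublet well were simply the sum of a T well and a cDC well, its total would be the sum of both. Its gene number would lie between the larger of both gene numbers, where one cell's genes contain those of the other, and their sum, where no gene is shared.

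Each expected value was taken over all 144400 pairs of 1 well from a T plate and 1 from a cDC plate, for 10 such plate pairs. The single plates behind them differed in depth. The sum of the totals over a plate's 380 wells ranged from 5972572 to 11212777 on T plates, from 3317498 to 9933111 on cDC plates and from 2884885 to 9095151 on doublet plates. The 116 empty wells gave the background, with plate medians of at most 34.5 genes and of totals of 161 to 1550.5. Some plates stood apart. On 1 SB410 doublet plate from ND all wells of the lowest rows read like empty wells, as described below. The SB405 T plate numbered 6 on ND had 568.5 genes and 18.4% of wells with at least 1000 genes, where the other 12 T plates had 310.5 to 430.5 genes and at most 3.16%.

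Doublet wells held far less than the summed total of a pair. In SB405 the ND doublet plate had a median total of 19464.5, against 43029 and 44540 for its 2 expected pairs. The MCDD doublet plate of SB405 had 18977.5, against 41663, 43174 and 31234. These doublet totals lay within the range of single T and cDC plates of the same batch, at 13004 to 25606.

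In SB410 the gap was wider. The ND doublet plates had medians of 5979.5 and 6905, against pair sums of 26831, 30566.5 and 24064. The MCDD doublet plates had 8875 and 7683, against pair sums of 25248 and 23449. Both ND doublet plates lay below the lowest cDC plate of their set, at 6914, and all 4 doublet plates lay below every T plate of the batch, whose lowest median was 13647.

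All 6 doublet plates lay below every expected pair of their set. The mean log2 difference was -1.57 ± 0.09 SE, a total 2.98-fold lower than the pair sum (exact permutation test over plates within batch and diet, two-sided, adjusted p = 0.00208, from the smallest p that 720 relabellings allow, 0.00139). By set the total was 2.25-fold lower on ND and 2.02-fold lower on MCDD in SB405, and 4.21-fold lower on ND and 2.95-fold lower on MCDD in SB410. Batch SB405 alone cannot pass, since its smallest p is 0.0833.

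**Figure D1:**
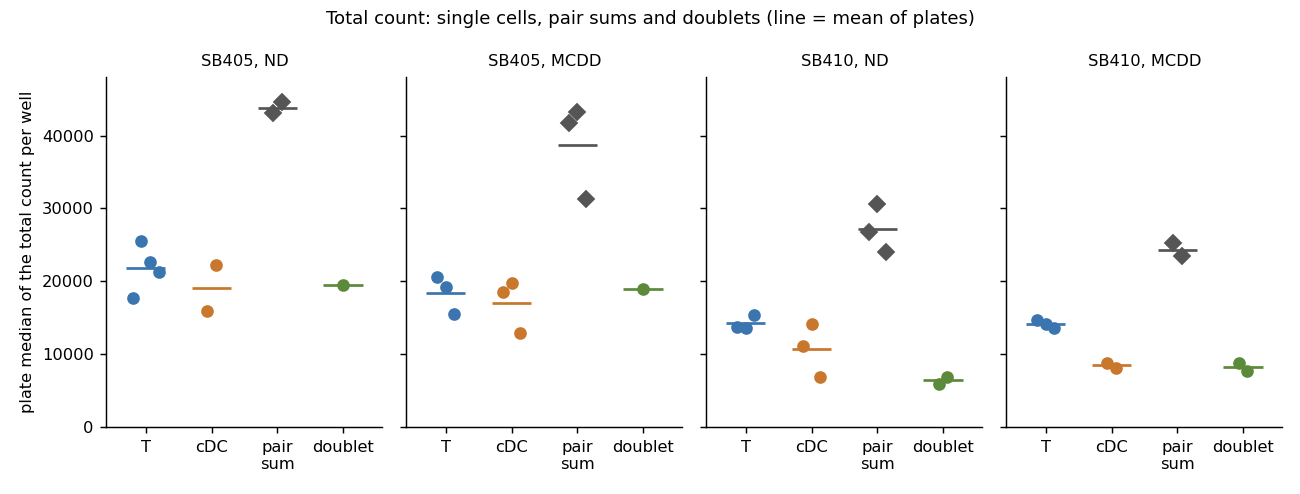
Plate median of the total count per well (y axis) for T cell plates, cDC plates, sums of all T and cDC well pairs (diamonds, 1 per plate pair) and doublet plates, in 4 panels by batch and diet. Points are plates and lines are their means; the doublets of SB405 lie among the single cells at 18977.5 and 19464.5, and those of SB410 lie between 5979.5 and 8875.

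How many counts a plate receives depends on how it was pooled and sequenced, which the labels do not state. A pair sum adds 2 plates' shares of the sequencing, while a doublet plate has 1. With every plate scaled to the same sum of totals, the mean pair sum is 2 times the mean doublet total by construction, whatever the cells hold. The scaled differences of medians were -1.14 on ND and -1.11 on MCDD in SB405, and -1.40 on ND and -1.26 on MCDD in SB410. The scaled values therefore carry no information on RNA per well, and the part of plate depth in the deficit was not tested.

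The gene number gave another picture. Doublets had about as many genes as the richer cell of a random pair in 3 of the 4 sets, and fewer in the fourth. In SB405 the doublet plates had 550 genes on ND and 581 on MCDD. The larger gene number of their pairs was 495 and 559 on ND, and 574, 589 and 517 on MCDD. The difference was 0.06 on the log2 scale on both diets, and each doublet plate lay inside the range of its pairs.

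In SB410 on MCDD the doublet plates had 378.5 and 420.5 genes, against 391 and 375 for the larger gene number of their pairs, a difference of 0.06. On ND the doublet plates had 238 and 274.5 genes, against 440, 440 and 405, a difference of -0.74. Only in that set did all doublet plates lie below all pairs. Its doublet plates had sums of totals of 2884885 and 4511820, against 5972572 to 6788669 on T plates and 3317498 to 6687898 on cDC plates. On MCDD in SB410 the doublet sums, 3820587 and 4553629, also lay below those of T plates, 6024000 to 6618882. The part of plate depth in the gene number was not tested. Over the 6 plates, 3 lay above and 3 below the mean of their pairs, and the difference of -0.21 ± 0.05 SE did not pass (exact permutation test, two-sided, adjusted p = 0.125). That p does not show that doublets and the richer cell had the same gene number. The SE covers the spread between plates within sets and not the spread among sets. The mean of log2(genes + 1) over wells weighs wells with few genes more than the median does. It gave -0.60 (exact permutation test, adjusted p = 0.00417), which is not a difference in mean gene number. Without both ND doublet plates of SB410 the difference of medians turned to 0.06.

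Against the summed gene number all 6 doublet plates were lower. The sums were 777 and 872 on ND and 874, 917 and 813 on MCDD in SB405. In SB410 they were 648, 684 and 618 on ND and 589 and 567 on MCDD. No doublet plate reached the lowest of these within its set. The difference was -0.82 ± 0.05 SE, 1.77-fold lower (exact permutation test, adjusted p = 0.00208). The sum is an upper bound, and a well that held both cells would also lie below it where they share genes. The p therefore does not tell whether a doublet well is the sum of both cells.

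The position between both bounds can be given as a share of the way from the larger to the summed gene number. It was 7.73% on the ND plate and 6.82% on the MCDD plate of SB405. In SB410 on MCDD it was -2.31% and 19.2%. On ND in SB410 it was -85.9% and -69.4%, where a negative value lies below the larger gene number. No doublet plate had a median in the upper part of the range.

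**Figure D2:**
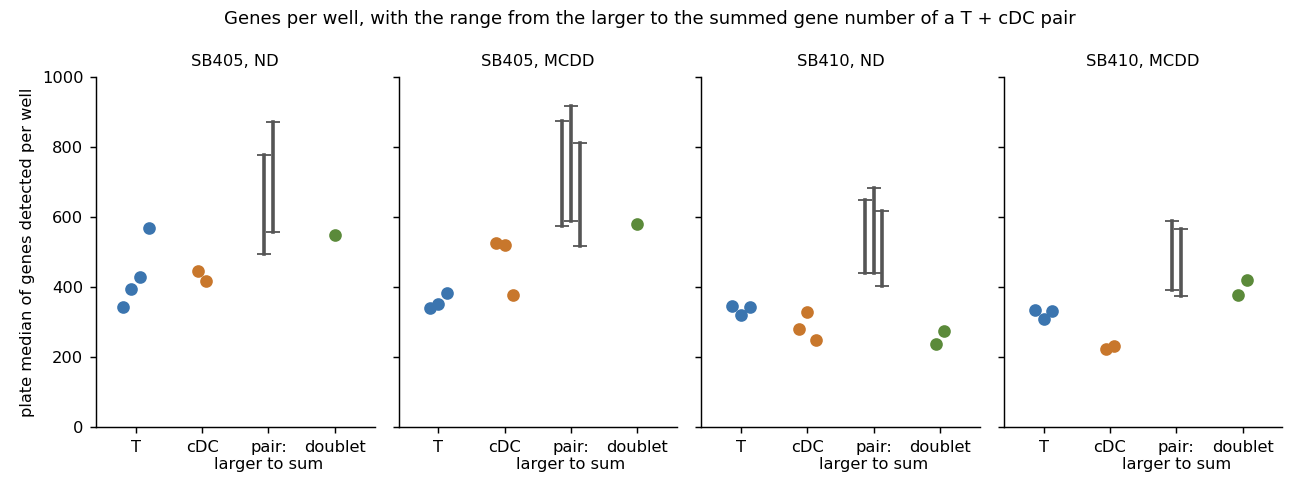
Plate median of genes detected per well (y axis) for T plates, cDC plates and doublet plates (points), with vertical bars from the larger to the summed gene number of each T and cDC plate pair, in 4 panels by batch and diet. Doublets lie at the lower end of the bars in 3 panels, at 378.5 to 581 genes, and below the bars on ND in SB410, at 238 and 274.5.

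The median hides a wide spread among doublet wells. At the lowest wells doublets fell far short of pairs, and at the richest wells most doublet plates exceeded the larger gene number. At the 10th percentile of wells the doublet plates had 4.18% to 75.3% of the pairs' larger gene number. The larger of 2 independent wells has fewer low values than a single well by construction, so that gap says little about doublets. On MCDD in SB410 this percentile was 219 genes for pairs and 29.9 and 164.9 on doublet plates. It was 165.9, 145.3 and 177 on T plates and 69 and 81.9 on cDC plates. At the 90th percentile 5 of 6 doublet plates exceeded the pairs' larger gene number, from 102.7% on the SB405 MCDD plate to 139.2% on the SB410 MCDD plate numbered 1. The sixth, the SB410 ND plate numbered 1, reached 67.7%.

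For totals none of the 5 percentiles computed (10th, 25th, 50th, 75th and 90th) reached the pair sum. At the 10th percentile the doublet total was at most 38.0% of the pair sum, and at the 90th it was 28.4% to 61.0%. A doublet well had a higher total than a random pair in 4.81% to 19.9% of all comparisons on the 6 plates, where 50 would mean no difference. It had more genes than the richer cell of the pair in 48.9% to 54.7% of comparisons on the SB405 plates and the MCDD plates of SB410. On the SB410 ND plates these shares were 22.6% and 35.7%. It exceeded the summed gene number in 12.0% to 33.0% of comparisons.

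**Figure D3:**
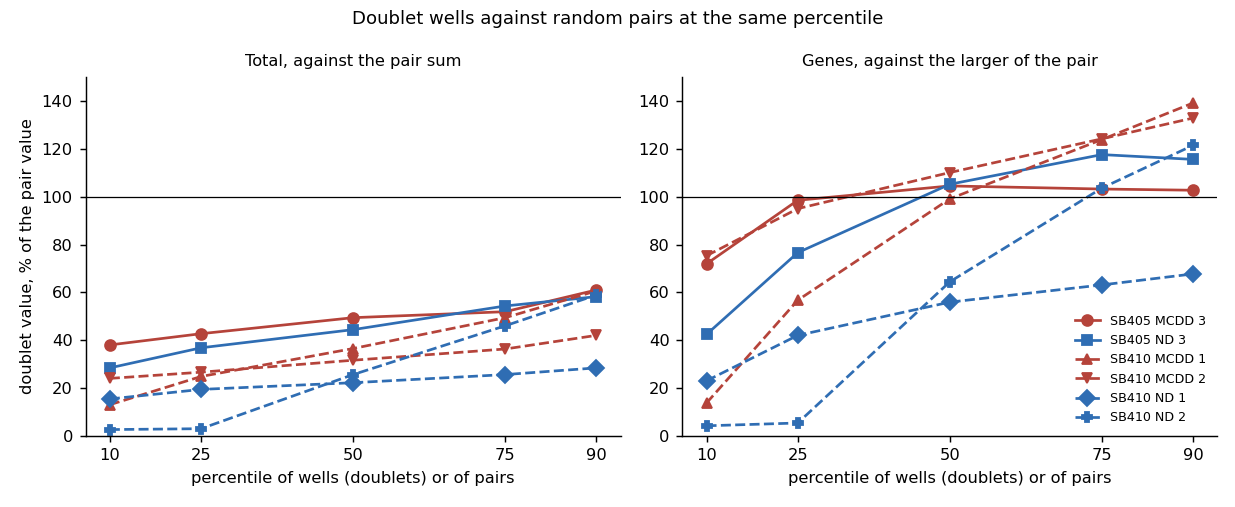
Value of doublet wells as a percent of the value of random T and cDC pairs at the same percentile, for the total against the pair sum (left) and for genes against the larger of the pair (right), x axis the percentile and 1 line per doublet plate. Every total lies below 100%, with 61.0% the highest, while the gene lines of 5 plates pass 100% by the 90th percentile.

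Gene-rich wells were also counted. Wells with at least 1000 genes made up 15.8% of the ND doublet plate and 14.7% of the MCDD doublet plate in SB405. Of the random pairs, the richer cell had at least 1000 genes in 9.48% on ND and 12.7% on MCDD. The ND pairs were made from T plates 3 and 4, so T plate 6, with 18.4% of such wells, was not among them. In SB410 on MCDD the doublet plates had 6.05% and 5.26%, against 1.57% of pairs by the richer cell and 8.09% by the sum. On ND the SB410 plates had 0.789% and 8.16%, against 4.69% and 17.5%. The doublet shares lay above the richer cell's in 5 of 6 plates and below the sum's in all 6. No test was run on these shares.

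Doublets and single cells of the same total can be compared directly. At matched total, doublets had more genes than T cells and more than cDC. Wells were grouped in bins of the log2 total of width 0.5 that held at least 20 wells on every plate of a set, and a plate's value was the mean over bins of the median log2(genes + 1). Total and gene number come from the same counts of a well and are not independent. Plates also differed in depth, so wells of the same total can differ in rank within their plates. In SB410 the sums of totals were 2884885 to 4553629 on doublet plates and 5972572 to 6788669 on T plates. The part of plate depth in this comparison was not tested.

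In SB405 on MCDD the doublet plate had 689.2 genes at matched total, against 380.9, 396.1 and 489.7 on the T plates. On ND it had 632.7, against 409.8, 371.5 and 451.2 on T plates 3, 4 and 5 and 635.9 on T plate 6. The T plate numbered 6 was thus level with the doublets, and the other 3 lay below them.

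In SB410 on MCDD the doublet plates had 491.2 and 600.0 genes, against 289.5, 278.6 and 301.4 on the T plates. On ND they had 381.3 and 376.8, against 274.5, 256.3 and 256.8. In both sets of SB410 the doublet plates lay above all T plates. Over all sets the difference was 0.67 ± 0.10 SE, 1.60-fold, higher on 6 of 6 doublet plates than the mean of their T plates (exact permutation test, adjusted p = 0.00185).

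Against cDC the differences were smaller in SB405. The doublet plate had 605.0 genes at matched total on MCDD, against 557.1, 511.2 and 561.8 on the cDC plates. On ND it had 444.4, against 439.3 and 300.9. Each doublet plate was the highest of its set, and lay 1.11-fold on MCDD and 1.22-fold on ND above the cDC mean. On ND the margin over the higher cDC plate was small, and the doublets were above both cDC plates in 3 of 6 bins.

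In SB410 the doublet plates stood further above cDC. On MCDD they had 346.8 and 451.1 genes, against 214.6 and 239.6. On ND they had 299.8 and 286.3, against 138.9, 162.5 and 270.7. The first 2 of these cDC values include a lowest bin, at 2896.3 to 4096, where the wells held only 17.5 and 41.5 genes in the median. In that bin the doublet plates held 145.5 and 125.4. With only wells of at least 100 genes, the difference over all sets was 0.46 (exact permutation test, adjusted p = 0.00694). All doublet plates exceeded all cDC plates of their set in all 4 sets, with a difference of 0.57 ± 0.16 SE, 1.48-fold (exact permutation test, adjusted p = 0.00694). The call was lost without both ND doublet plates of SB410 (0.51, exact permutation test, adjusted p = 0.0556) and among even plate columns (0.47, exact permutation test, adjusted p = 0.111). Batch SB405 alone gave 0.22 and SB410 alone 0.74.

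**Figure D4:**
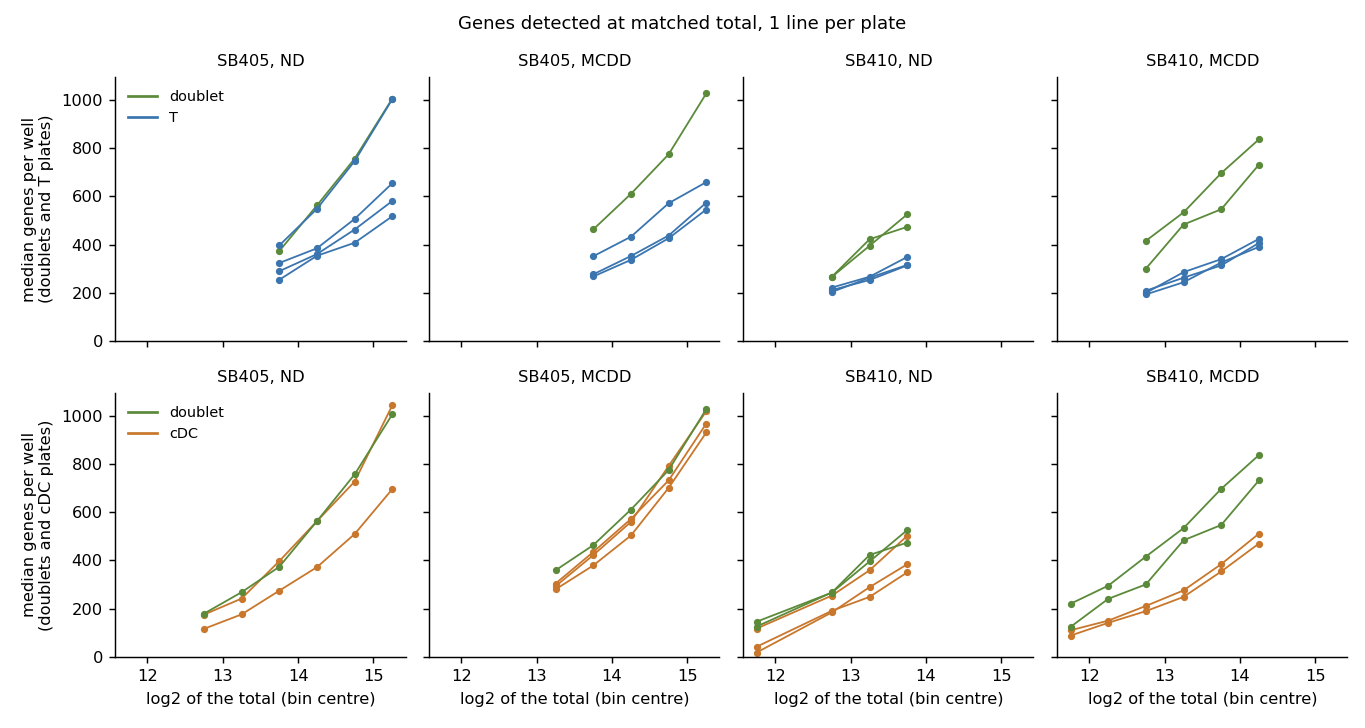
Median genes per well (y axis) against the log2 of the total (x axis, bin centres), 1 line per plate, for doublets with T plates (upper row) and with cDC plates (lower row), by batch and diet. Doublets lie above the T plates except the ND plate numbered 6 of SB405. They run close to a cDC plate in SB405, at 444.4 against 439.3 on ND and 605.0 against 561.8 on MCDD. The same holds on ND in SB410, at 299.8 and 286.3 against 270.7.

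A doublet with the same total as a pair sum could also be compared with that pair. Where the totals overlapped, at 11585.2 to 65536 depending on the set, doublets had 1.75-fold to 2.68-fold the larger gene number of the pair. They had 1.15-fold to 1.77-fold its summed gene number. That sum is the upper bound for a pair, and pair totals add the depth of both plates. The folds therefore do not show that doublets express more genes than both cells together. Only 37 to 214 wells per doublet plate fell in this range of totals. In SB410 that range lay below the median pair sum of every plate pair, so the pairs in it were of low total and the doublets of high total for their plates. These folds were not tested.

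The spread of totals was wider on doublet plates than among pairs. In rows A to J its difference from single T or cDC plates was not past the threshold, which does not show that the spreads were equal. The 75th percentile of the total was 2.46-fold to 31.0-fold the 25th on doublet plates, with a median of 2.67 over the 6 plates. Single T plates had ratios of 2.00 to 3.95 and single cDC plates 2.36 to 4.66. Against T plates the log2 difference was 0.88 (exact permutation test, unadjusted p = 0.0200), and in rows A to J it was 0.24 (exact permutation test, unadjusted p = 0.407). Against cDC plates it was 0.57 (exact permutation test, unadjusted p = 0.296), and -0.03 in rows A to J (exact permutation test, unadjusted p = 0.874). Pairs had ratios of 1.78 to 2.07, below every doublet plate of their set, with a log2 difference of 1.12 ± 0.48 SE. The sum of 2 independent wells has a narrower relative spread than a single well by construction, so the gap to pairs says little about doublets. It was 0.55 without the SB410 ND doublet plate numbered 2, which had the ratio of 31.0.

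Wells with fewer than 100 genes were found on all doublet plates. Their share was 8.42% on ND and 2.89% on MCDD in SB405, 16.3% and 39.7% on ND in SB410, and 19.5% and 4.74% on MCDD in SB410. Both wells of a random pair were under 100 genes in 0.0194% to 1.91% of pairs, and the doublet share was higher by 14.5 ± 3.68 SE percentage points. The pair share is the product of the T and cDC shares, so any plate with a share like that of single cells lies above it, and no call is drawn from that gap. It was 9.65 points without the SB410 ND plate numbered 2.

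Single cells also gave such wells. On cDC plates their shares ranged from 1.05% to 27.9%, with a median of 12.8% over 10 plates, and those of T plates from 1.84% to 21.6%, with a median of 4.74% over 13 plates. Within sets the doublet share was 9.58 percentage points above T plates (exact permutation test, unadjusted p = 0.0380). In rows A to J that difference was 4.24 points (exact permutation test, unadjusted p = 0.220). Against cDC plates it was 1.24 points (exact permutation test, unadjusted p = 0.776), and -5.06 in rows A to J (exact permutation test, unadjusted p = 0.0861).

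The wells with few genes were not spread evenly over some plates. On the SB410 ND doublet plate numbered 2, all 92 cell wells of rows M to P had fewer than 100 genes. These wells held 12 genes in the median, where the plate's empty wells held 9. The median totals were 410 and 375. In rows K and L 26 of 48 wells were under 100 genes, and in rows A to J 33 of 240. Of the wells in rows M to P, 2.17% to 27.2% were under 100 genes on the other 5 doublet plates, and at most 12.0% on T plates and 19.6% on cDC plates.

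Other plates differed by column. On the SB410 MCDD doublet plate numbered 1, 54 of 190 wells in odd columns were under 100 genes and 20 of 190 in even columns. The same unequal split was seen on the SB410 ND cDC plate numbered 1, with 84 and 22, and on the SB405 MCDD T plate numbered 3, with 75 and 7. The 7 tested results were therefore also computed in rows A to J and in even columns of every plate.

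**Figure D5:**
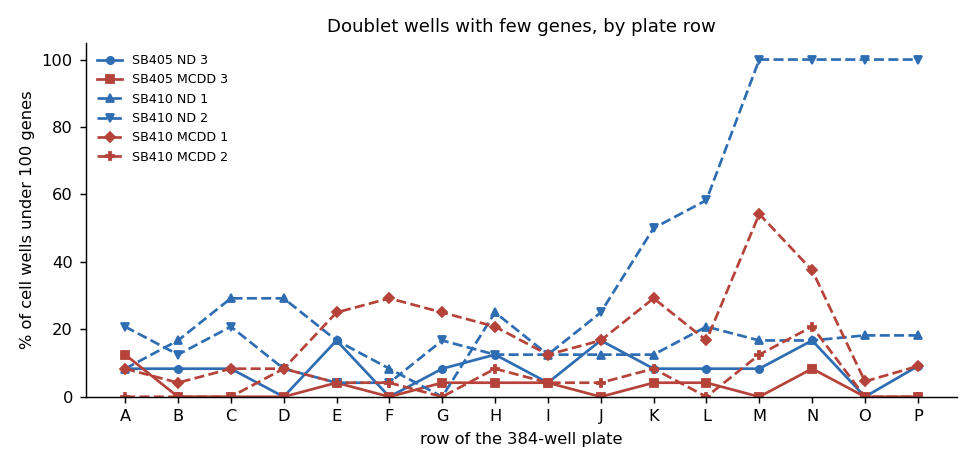
Percent of cell wells with fewer than 100 genes (y axis) by plate row (x axis, A to P), 1 line per doublet plate, blue for ND and red for MCDD, solid for SB405 and dashed for SB410. The SB410 ND plate numbered 2 reaches 100% in rows M to P, where the 5 other doublet plates hold 2.17% to 27.2% over those rows together.

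In rows A to J the median well of the SB410 ND doublet plate numbered 2 held 446.5 genes, and the median total was 12608.5. For the ND plate numbered 1 the same rows gave 229.5 genes, and 5748 for the total. The set's difference from the larger gene number was then -0.41 in place of -0.74, and that from the pair total -1.62 in place of -2.07. The low gene number of plate 2 was thus that of its lower rows, while plate 1 was low in rows A to J as well. Over all sets in these rows the calls were the same, with -1.41 for the total, -0.08 for the larger and -0.69 for the summed gene number, and against pairs the spread was 0.53 in place of 1.12 and the share under 100 genes 9.14 points in place of 14.5.

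The diets could be compared only by value. The doublet deficit in total was larger on ND than on MCDD in both batches, by 0.16 on the log2 scale in SB405 and 0.51 in SB410. In rows A to J these gaps were 0.15 and 0.19. For genes against the larger gene number the MCDD value minus the ND value was -0.01 in SB405 and 0.80 in SB410, and in rows A to J it was -0.07 and 0.60. At matched total against T cells it was 0.25 and 0.38, and against cDC -0.13 and 0.12. With 1 doublet plate per diet in SB405 and 2 in SB410, permuting the diet of doublet plates allows 12 relabellings and a smallest two-sided p of 0.167, so no difference between diets could be called.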

How the data were processed

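Sorted wells were barcoded, pooled and amplified by T7 transcription for single-cell RNA-seq, per the labels' protocols. The deposited table gives, per well, the authors' whole-number count named total and a count of genes detected, with the plate, position and batch. The submitters' processing notes name bcl2fastq 2.15.0.4 and mm10. Not given in the sources used here: aligner, annotation, filters, whether the total counts reads or molecules, and whether it includes spike-ins, which a pair sum would add for both wells. A second deposited table was used only to count wells and plates.

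Plates were matched to labels by the plate name in the sample title, and no 2 plates had identical totals. T and cDC plates of a set were paired once each, by the number in their labels and then in label order, which left 3 T plates out of the pairs. These were T plates 5 and 6 on ND in SB405 and T plate 6 on MCDD in SB410. All well pairs were enumerated, so no value was drawn at random. Doublet and expected-pair plates were relabelled within batch and diet in a two-sided exact permutation test of the mean difference of log2 medians, weighted by doublet plates. Benjamini-Hochberg adjustment covered 3 results (total, larger and summed gene number) and 4 further results. The 4 include the spread and the share against pairs, whose p-values thus enter the adjusted p of genes at matched total. Before adjustment those were p = 0.00100 against T cells and 0.00694 against cDC (exact permutation test). Comparisons with T or cDC plates in place of pairs were chosen after the data had been seen. Their p-values are unadjusted, and no call is drawn from them. Calls needed an adjusted p below 0.05. Standard errors pool the variance between plates within sets, with 8 or 11 degrees of freedom. They leave out the spread among sets, and a set with 1 doublet plate adds no variance between doublet plates. The members, lists and thresholds were chosen with earlier results of these data known. The rule for named genes and the marker lists named none, as the tables hold no gene-level values. The test was checked on simulated plates for the total alone. Gene number, genes at matched total, spread and share were not simulated. A share of wells rests on 380 wells per plate, and its 95% Wilson interval covers counting error only. Software was scipy 1.17.1, pandas 2.3.3 and numpy 2.4.6 under Python 3.11.15, with matplotlib 3.10.9 for plots. Alternatives were other wells, other summaries, single batches or diets, scaling, each plate left out and same-numbered plates.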

Additional observations from a re-analysis of the deposited data

How the results depend on the processing

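The 7 results were recomputed under the settings named here. For the spread and the share against pairs, a call below means only on which side of the threshold the adjusted p lay. As pairs are narrower and less often low by construction, no conclusion is drawn from it. With batch SB405 alone the calls were lost, since its 12 relabellings against pairs allow no smaller p than 0.0833 and the T cell comparison had an adjusted p of 0.133: total -1.09, summed gene number -0.58, genes at matched total 0.59 against T cells and 0.22 against cDC, spread 0.45 and share under 100 genes 5.28, while the larger gene number turned to 0.06. On ND alone no result passed (largest adjusted p 0.0667 among these), with -1.77, -1.09, 0.51, 0.55, 1.65 and 20.5 in the same order. There 30 relabellings against pairs allow no smaller p than 0.0333 (exact permutation test). The total, summed gene number, spread and share stood at that p before adjustment. On MCDD alone the adjusted p was at or above 0.0556, with -1.38, -0.55, 0.84, 0.59, 0.60 and 8.45, and the larger gene number was 0.06. Its 24 relabellings against pairs allow no smaller p than 0.0417 (exact permutation test), where the same results stood before adjustment. Failing on 1 diet alone thus says little about an effect. The larger gene number was past the threshold with the mean of log2(genes + 1) over wells (-0.60). With medians it was 0.02 when wells needed 200 genes or more, and 0.06 without both ND doublet plates of SB410. Without those plates genes at matched total against cDC were 0.51, and in even columns 0.47, both short of the threshold. Against cDC plates in place of pairs the spread was 0.57 and the share under 100 genes 1.24, neither past the threshold. In rows A to J these were -0.03 and -5.06, and against T plates in those rows 0.24 and 4.24, none past the threshold. Settings chosen after the data had been seen were these plate, row, column and single-sort choices and the 200-gene limit.

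Leaving out 1 of the 29 plates at a time changed no call. The total lay between -1.69 and -1.45, the larger gene number between -0.28 and -0.08 and the summed gene number between -0.89 and -0.69. Genes at matched total lay between 0.60 and 0.72 against T cells and between 0.48 and 0.66 against cDC, the spread between 0.55 and 1.28 and the share between 9.65 and 16.8. Same-numbered plates of 6 numbered sets, taken as a replicate block, gave -1.62 for the total, -0.21 for the larger and -0.82 for the summed gene number, 0.73 and 0.70 at matched total, 1.09 for the spread and 14.4 for the share, with no change of call (exact sign-flip permutation test, smallest p 0.0312). The labels do not say that a number marks shared animals, and same-numbered plates moved together in 2 of 2 sets for the total, 0 of 2 for the larger and 1 of 2 for the summed gene number. Adding the 4 plates of batch SB399 in the well table, all on MCDD, gave -1.43, -0.36 and -0.99 with the same calls.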
